A study of Mus musculus with 4 samples.

Results

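The Serpina3 genes described here are Serpina3i, Serpina3g, Serpina3f and Serpina3n, 4 of the 32285 genes counted in single bone marrow cells. They were chosen by symbol, with their levels in these libraries already known, so the levels below are a description and no difference was tested. The marrow came from transplanted mice at 10 weeks, and every sort included CD45.2, a leukocyte antigen by which donor and host cells can be told apart. There were 4 libraries, 1 for each group. They held control Kit+ cells (library name wt), Mll3/4 deleted Kit+ cells (dKO), Mll3/4SI Kit+ cells (dKI) and control B220lo cells (B220lo). Kit is the receptor carried by stem and progenitor cells, and a low level of B220 is found on early B-lineage cells. Mll3 and Mll4 are histone H3 lysine 4 methyltransferases, encoded by Kmt2c and Kmt2d. The labels do not expand SI, and they give neither the deleting enzyme and its driver, nor the number or age of the mice, nor whether cells of several mice were pooled.

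Serpins are protease inhibitors that offer a protease a bait loop and change shape when it is cut, which traps the enzyme. The mouse carries a tandem series of Serpina3 genes on chromosome 12 in place of the lone human SERPINA3, the acute-phase protein alpha-1-antichymotrypsin. Serpina3g, also known as Spi2A, is an intracellular inhibitor of cathepsins that has been studied in blood progenitors and lymphocytes, and Serpina3n is a secreted acute-phase inhibitor that can block granzyme B. Interferon, interleukin-6 family cytokines and NF-kB signalling are known inducers of genes of this kind.

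On GRCm38, all 4 genes lie on the plus strand of chromosome 12 and are protein coding. Serpina3f (ENSMUSG00000066363) spans 104214544 to 104221129, Serpina3g (ENSMUSG00000041481) 104236245 to 104241939, and Serpina3i (ENSMUSG00000079014) 104263122 to 104269372. Serpina3n (ENSMUSG00000021091) spans 104406729 to 104414329. The 250 bases before the RefSeq start of each gene (GRCm38.p6) are shown, 5′ to 3′, because they let the members be compared at the place where their transcription begins. Capitals mark matches to 3 of the 5 motifs searched on both strands, which are GAS (TTCNNNGAA, the half-sites bound by STAT proteins), an NF-kB core (GGG and TTCC spaced by 3 bases) and AGATAA, a site of the GATA factors.
Serpina3f, chr12:104214294-104214543: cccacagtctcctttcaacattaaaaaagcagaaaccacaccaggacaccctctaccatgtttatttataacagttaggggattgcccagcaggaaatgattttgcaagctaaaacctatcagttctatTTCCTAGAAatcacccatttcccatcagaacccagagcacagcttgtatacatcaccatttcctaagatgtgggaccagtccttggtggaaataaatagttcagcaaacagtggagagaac
Serpina3g, chr12:104235897-104236146: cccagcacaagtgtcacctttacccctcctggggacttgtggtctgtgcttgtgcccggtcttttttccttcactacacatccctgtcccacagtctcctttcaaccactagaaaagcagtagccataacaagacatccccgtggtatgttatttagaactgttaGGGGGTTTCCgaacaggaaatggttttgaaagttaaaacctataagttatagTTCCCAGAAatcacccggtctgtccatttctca
Serpina3i, chr12:104262872-104263121: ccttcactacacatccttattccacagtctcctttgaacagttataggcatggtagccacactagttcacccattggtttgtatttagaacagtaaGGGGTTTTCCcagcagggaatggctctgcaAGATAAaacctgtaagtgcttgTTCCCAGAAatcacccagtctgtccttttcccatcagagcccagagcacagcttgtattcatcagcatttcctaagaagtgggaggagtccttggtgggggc
Serpina3n, chr12:104406458-104406707: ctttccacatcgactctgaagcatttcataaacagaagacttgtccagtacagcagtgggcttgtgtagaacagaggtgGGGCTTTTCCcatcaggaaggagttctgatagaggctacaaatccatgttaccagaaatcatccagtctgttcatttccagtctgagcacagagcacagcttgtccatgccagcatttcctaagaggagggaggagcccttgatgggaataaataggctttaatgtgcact
A GAS match lay 102 to 94 bases before the start of Serpina3i, 33 to 25 bases before that of Serpina3g and 121 to 113 bases before that of Serpina3f, and these letters were not in the Serpina3n window. The Serpina3g and Serpina3n windows end at 104236146 and 104406707, short of the gene starts of 104236245 and 104406729 given above. Distances for these genes therefore depend on the start used. GAS was found in 7.02% of 32851 RefSeq promoters of the same length. The NF-kB core stood in the windows of Serpina3i, Serpina3g and Serpina3n, against 4.65% of all promoters. AGATAA stood in that of Serpina3i alone among these 4, against 9.99% of all. The interferon response element core (GAAA repeated after 2 bases, 2.98% of promoters) and the kappa B site of the immunoglobulin light chain enhancer (0.140%), a form of the NF-kB core, were in none of the 4 windows.

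Aligned to each other, the promoters of Serpina3i, Serpina3g and Serpina3f were 77.9% to 82.9% identical, and each was 67.1% to 71.2% identical to that of Serpina3n. Their longest annotated transcripts were 87.4% identical between Serpina3i and Serpina3g, 87.4% between Serpina3i and Serpina3f and 88.4% between Serpina3g and Serpina3f. Of the positions at which a stretch of 60 bases can start in a transcript, 3.11% to 4.99% gave a stretch found exactly in the other transcript. This counts start positions and not the bases covered. The longest run shared exactly was 119 to 135 bases in these pairs. Within the first 300 bases, where a 5′ kit reads, identity was 62.2% to 66.3%. Reads that fit several copies could be assigned unevenly, and their part in the levels below was not tested.

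The libraries held 12205 to 16861 barcodes, of which 11051 control Kit+, 13747 deleted, 11501 SI and 15380 control B220lo cells were kept. Median depth of the kept cells was 11594, 6507, 11969 and 3246 UMIs (unique molecular identifiers, 1 per captured transcript), in that order. Y-linked transcripts stood at 148 CPM (counts per 1e6 UMIs) in the deleted library and at 0.0143 to 0.570 CPM in the other libraries, so sex and genotype differ together and cannot be told apart. Kmt2c stood at 51.8 to 62.7 CPM and Kmt2d at 20.1 to 24.0 CPM in the 3 Kit+ libraries. Reads at the 5′ end need not cover the deleted part, so these levels do not check the deletion. Pairs of libraries shared 178 to 292 cell barcodes, 1.38% to 2.14% of a library.

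Cells were grouped by UMIs of a gate gene, with at least 1 of Hlf (stem and early progenitor cells), 10 of Elane (neutrophil elastase, granulocyte-monocyte progenitors), 10 of Car1 (erythroid), 3 of Pf4 (megakaryocyte), 3 of Fcer1a (basophil and mast) or 3 of Cd79a (B lineage). In the control Kit+ library, 4 of 7 further markers of stem and progenitor cells (Mecom, Procr, Cd34 and Flt3) were highest in the Hlf gate. All 6 further markers were highest in the Elane, Car1 and Fcer1a gates there, and all 5 in the Pf4 gate. The SI library gave the same counts except in the Fcer1a gate, where 4 of 6 were highest. All 7 further B-lineage markers were highest in the Cd79a gate of the deleted and control B220lo libraries. In the deleted library 5 of 7 were highest in the Hlf gate, 5 of 6 in Elane and 5 of 6 in Car1, and in the control B220lo library 6 of 7 in Hlf and 6 of 6 in Elane. A cell could pass several gates, and 29.9% of SI Fcer1a cells also passed the Hlf gate, against 13.4% in the control.

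Serpina3i separated the Mll3/4SI library from the control Kit+ library in the Hlf, Pf4 and Fcer1a gates, and from the deleted library in the Hlf gate. The deleted Pf4 and Fcer1a gates, with 13 and 4 cells, held 0 UMIs and are given as values only. There 3 UMIs would have been 11.9 and 70.7 CPM. In Hlf cells it stood at 133 CPM in the SI library (95% exact Poisson interval 129.7 to 137; 5596 UMIs in 3238 cells). The control Kit+ library held 1 Serpina3i UMI in 2493 Hlf cells, or 0.0341 CPM (0.000864 to 0.190). The deleted library held 0 in 186 Hlf cells, and 3 UMIs would have been 0.984 CPM. The SI level was 3902 times the control level, with an exact counting interval of 700.1 to 154155, which is wide because the control rests on 1 UMI. Intervals here and below cover counting error only, not differences between mice, and those of CPM and ratios leave out differences between cells too.

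Markers of other cell types also differed between the Hlf gates. Over 7 basophil and mast markers the summed level was 1027 CPM in SI and 280.5 in control Kit+ Hlf cells, with none of the 7 at 0. Summed erythroid markers were 269.9 CPM in SI and 772 in control, and megakaryocyte markers 148 and 319. The 3 T and NK markers summed to 81.6 CPM in SI, with Cd3e at 0, and 459 in control Hlf cells. Their sum was lower in SI than in control in each of the 6 gates. In the control Pf4, Fcer1a and Cd79a gates Cd3e and Trbc2 were at 0, so the sum there was of Nkg7 alone. In the Car1 gate Cd3e was at 0 in control but not in SI. In Elane cells basophil and mast markers summed to 486 CPM in SI and 158 in control. In the Pf4 gate, megakaryocyte markers summed to 1671 CPM in SI and 3452 in control, and basophil and mast markers to 1428, with Cma1 at 0, and 254. The part of these markers in the values of the members was not tested. Among Hlf cells that passed no other gate, the SI level of Serpina3i was still higher, by at least 9.25 on the log2 scale.

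The Serpina3i counts were also far apart in the Elane, Car1, Pf4 and Fcer1a gates. SI cells stood at 49.2 CPM in the Elane gate (2706 UMIs), 30.7 in the Car1 gate (514), 267 in the Pf4 gate (1638) and 186 in the Fcer1a gate (5723). Control Kit+ cells held 0 UMIs in the 4223 Elane cells, 1 in the 2288 Car1 cells, 1 in the 590 Pf4 cells and 0 in the 127 Fcer1a cells. Deleted cells held 0 in each of the 6 gates, including 12591 Cd79a cells, where 3 UMIs would have been 0.0306 CPM. Against the control Kit+ library, the SI level was at least 1026-fold higher in Elane cells and at least 88.3-fold higher in Fcer1a cells, taking 0 as 3 UMIs of the gate. It was 1273 times the control level in Car1 cells (228 to 50386) and 1882 times in Pf4 cells (337 to 74362). In the Cd79a gate, with 28 SI and 47 control cells, 12 and 0 UMIs were counted, at least 5.22-fold higher in SI, or a log2 ratio of at least 2.38. With cells of exactly 1 gate this fell to 5 and 0 UMIs, a log2 ratio of at least 0.67. For the Fcer1a gate the log2 bound fell from 6.46 to 5.11 with doubled thresholds, again with 0 control UMIs.

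**Figure D1:**
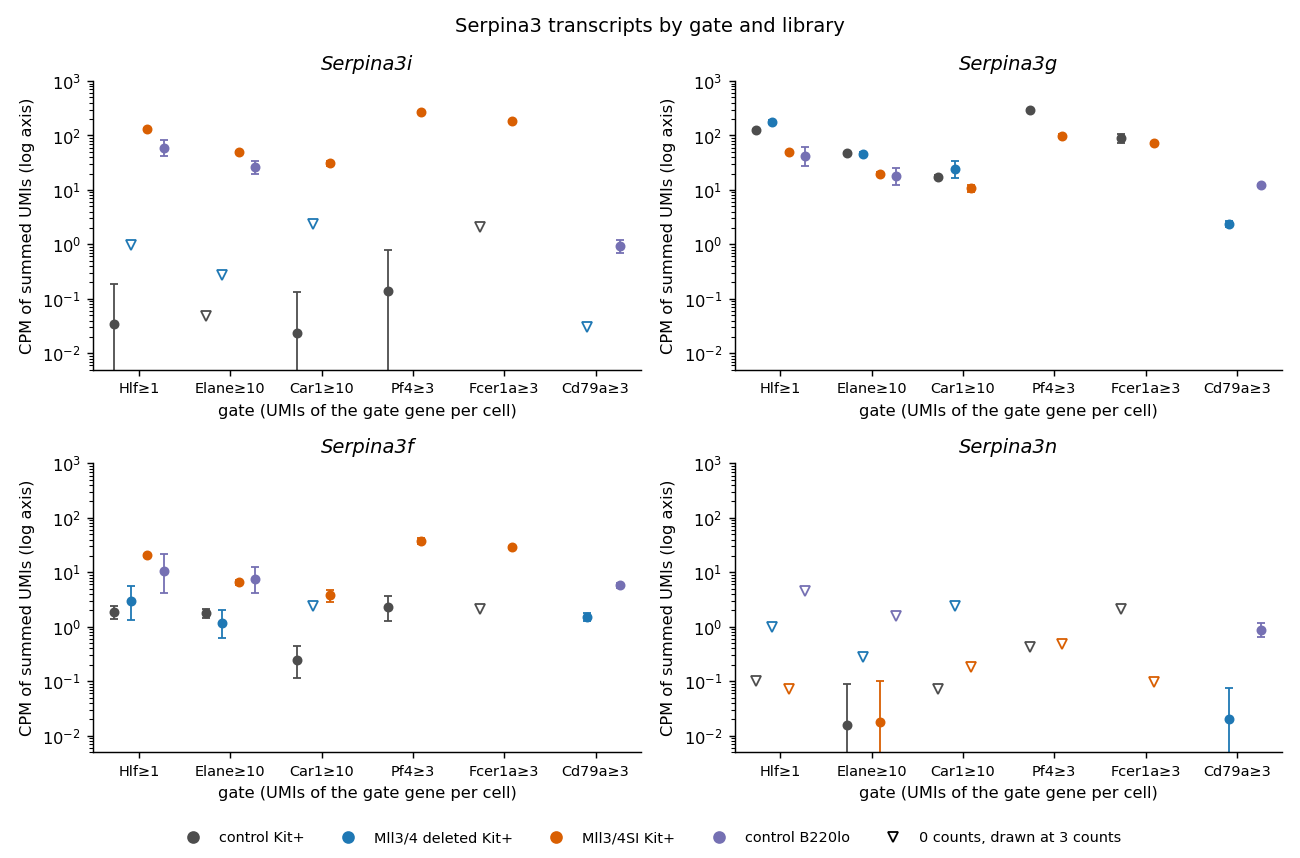
CPM of each gene (y, log axis) by gate (x) in the 4 libraries. Points are summed UMIs with 95% exact Poisson intervals, whose lower ends can run below the axis, open triangles mark 0 UMIs and stand at the CPM of 3 UMIs, and gates with fewer than 50 cells are left out. Serpina3i stands at 30.7 to 267 CPM in SI gates, while the control Kit+ gates hold 0 or 1 UMI each, and Serpina3g is lower in SI than in control in each of the Hlf, Elane, Car1, Pf4 and Fcer1a gates.

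Within the SI library the Serpina3i levels fell in the order Pf4, Fcer1a, Hlf, Elane and Car1. Their intervals, 254 to 281 CPM, 181 to 191, 129.7 to 137, 47.4 to 51.1 and 28.1 to 33.4, did not overlap between neighbours. Cells just outside and just inside a gate were alike in the Elane gate, at 143 CPM with 9 UMIs of Elane (46 cells) and 150.0 with 10 (34 cells), and both exceeded the 49.2 CPM of the whole gate. For Hlf the step was from 96.0 CPM at 0 UMIs (8263 cells) to 118 at 1 UMI (1791 cells). For Car1 it was from 124 CPM at 9 UMIs (24 cells) to 83.4 at 10 (31 cells), for Pf4 from 176 at 2 UMIs to 204 at 3, and for Fcer1a from 151 at 2 to 163 at 3. Cells at the edges of the Elane and Car1 gates thus held more Serpina3i than those gates as a whole.

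Serpina3g was counted in all 4 libraries. In Hlf cells it stood at 126 CPM in control Kit+ (122 to 130.2; 3693 UMIs), 177 in deleted (162 to 192; 539 UMIs), 49.5 in SI (47.3 to 51.6; 2078 UMIs) and 41.9 in control B220lo cells (27.8 to 60.6; 28 UMIs in 58 cells). The control B220lo value rests largely on 1 cell, which held 16 of the 28 UMIs. B-lineage markers summed to 1604 CPM in control B220lo Hlf cells and 43.7 in control Kit+ ones, and 31.0% and 0.0401% of them passed the Cd79a gate. The SI to control Kit+ ratio was 0.392 in Hlf cells (0.372 to 0.414). It was 0.418 in Elane cells (0.390 to 0.448), 0.613 in Car1 cells (0.518 to 0.722) and 0.339 in Pf4 cells (0.309 to 0.371).

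The counted levels of Serpina3g were thus lower in SI than in control Kit+ in these 4 gates. For the Car1 gate of SI, a level above that of free RNA was not shown by the shares of cells with a UMI. For the Elane gate of SI it was shown with cells thinned to 5000 UMIs, but not at 1000 or 2000 UMIs. In Fcer1a cells the levels were closer, at 73.3 CPM in SI and 89.2 in the 127 control cells, a ratio of 0.822 (0.688 to 0.991). With 6 or more UMIs of Fcer1a required, the ratio turned, and its log2 value went from -0.28 to 0.39, with 31 control UMIs. In the Cd79a gate 10 and 12 UMIs gave a ratio of 1.09 (0.421 to 2.75), which at this depth leaves either direction possible.

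The order of Serpina3g levels was not the same in the 2 genotypes. In control Kit+ cells it was Pf4 (291 CPM), Hlf (126), Fcer1a (89.2), Elane (47.7) and Car1 (17.6), with no overlap between neighbouring intervals. In SI cells it was Pf4 (98.7), Fcer1a (73.3), Hlf (49.5), Elane (19.9) and Car1 (10.8), again with no overlap. Fcer1a and Hlf cells changed places. In control Kit+ cells just outside and inside the gates, Serpina3g moved from 60.1 to 109 CPM for Hlf, from 220.3 to 214 for Pf4 and from 133 to 86.9 for Fcer1a, the last over 82 and 52 cells. It moved from 104 to 164 CPM for Elane and from 66.9 to 50.2 for Car1, over 34 to 49 cells, all above the 47.7 and 17.6 CPM of those whole gates, so the order holds for whole gates and not at their edges.

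In the deleted library Serpina3g differed by gate. The ratio to control Kit+ was 1.40 in Hlf cells (1.28 to 1.54), 0.967 in Elane cells (0.878 to 1.06) and 1.38 in Car1 cells (0.933 to 1.98; 31 UMIs in 62 cells). The 13 Pf4 cells stood at 399.8 CPM (101 UMIs, up to 22 in a cell), a ratio of 1.37 (1.11 to 1.68). This interval leaves out differences between the 13 cells. The 4 Fcer1a cells held 5 UMIs. In the Cd79a gate, which held 12591 of the 13747 deleted cells, the level was 2.38 CPM against 38.1 in control Kit+ (233 and 12 UMIs), a ratio of 0.0625 (0.0351 to 0.123) that rests on 47 control cells. The cells of these gates differed in makeup. Granulocyte-monocyte markers summed to 1087 CPM in deleted and 11617 in control Kit+ Cd79a cells, and 12490 of the 12591 deleted against 18 of the 47 control cells held Vpreb1 and no Ms4a1. In the Pf4 gate these markers summed to 131 CPM in deleted and 4868 in control cells, and B-lineage markers to 336 and 31.7. Deleted Hlf cells also held B-lineage markers, whose summed level was 856 CPM against 43.7 in control Kit+ Hlf cells, with Ms4a1 at 0, and 12.9% of them passed the Cd79a gate against 0.0401% in the control. In the Hlf gate erythroid markers summed to 216 CPM in deleted and 772 in control cells, and megakaryocyte markers to 92.2 and 319. Granulocyte-monocyte markers summed to 23233 and 17038 there. B-lineage markers summed to 786 CPM in deleted and 54.9 in control Elane cells, and to 411 and 8.82 in Car1 cells. The part of these differences in the Serpina3g values was not tested.

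Serpina3f followed Serpina3i rather than Serpina3g in the SI library. In Hlf cells it stood at 1.88 CPM in control Kit+ (1.41 to 2.44; 55 UMIs), 2.95 in deleted (1.35 to 5.61; 9 UMIs), 20.5 in SI (19.2 to 21.9; 862 UMIs) and 10.5 in control B220lo cells (4.21 to 21.6; 7 UMIs). Of the last 7 UMIs, 5 were in the 13 cells with Serpina3i, and the other 45 cells stood at 4.73 CPM. The SI to control Kit+ ratio was 10.9 (8.32 to 14.6). It was 3.71 in Elane cells (2.99 to 4.64), 15.6 in Car1 cells (7.95 to 34.1) and 16.7 in Pf4 cells (10.0408 to 29.6), where the SI Elane and Car1 levels were not shown to exceed that of free RNA. The 127 control Fcer1a cells held 0 UMIs, so the SI level of 28.6 CPM there was at least 13.6-fold higher, and the log2 bound fell from 3.76 to 2.40 with doubled thresholds.

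For the deleted library the Serpina3f counts were small, and the ratios to control Kit+ were 1.57 in Hlf cells (0.684 to 3.21) and 0.673 in Elane cells (0.347 to 1.20). Neither interval leaves out equal levels. The order of Serpina3f in SI cells was that of the other members, with Pf4 at 37.9 CPM, Fcer1a 28.6, Hlf 20.5, Elane 6.53 and Car1 3.76, and no neighbouring intervals overlapped.

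Serpina3n was close to absent from the Kit+ libraries. Over all kept cells it gave 1 UMI in control Kit+, 2 in deleted and 1 in SI cells, against 55 in control B220lo cells, of which 48 were in the Cd79a gate. Of the other Serpina3 genes in the files, Serpina3a, Serpina3b, Serpina3c, Serpina3j, Serpina3k and Serpina3m gave 0 to 5 UMIs in each library. In the Kit+ libraries the UMIs of the family therefore came almost wholly from 3 neighbouring genes.

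The position of the members among all genes was read with 1 CPM added to both libraries, over genes with at least 20 UMIs in the pair. In Hlf cells of SI over control Kit+, 3 members passed that minimum, of which Serpina3i (log2 7.02) and Serpina3f (2.90) were at least 2-fold higher and Serpina3g (-1.33) at least 2-fold lower. Of all 14621 genes tested there, 1.37% were 2-fold higher and 1.04% lower, and nothing is read from the members' count because these levels chose them. Serpina3i ranked 2nd from the highest, Serpina3f 22nd, and Serpina3g 70th from the lowest. Serpina3i ranked 3rd of 14710 genes in Elane, 1st of 13020 in Car1, 1st of 11891 in Pf4 and 2nd of 13020 in Fcer1a cells. The SI levels in Elane and Car1 cells are not read as expression, and the part of free RNA in these ranks was not tested.

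In Elane cells 2 members were higher and 1 lower, where 1.22% of genes were higher and 0.496% lower, and in Pf4 cells 2 were higher and 1 lower, where 2.51% and 2.44% were. In Car1 cells 2 members were higher and 0 lower (all genes 0.753% and 0.484%), and in Fcer1a cells again 2 and 0 (5.89% and 4.59%). For deleted over control Kit+, 0 of the 2 members tested were past 2-fold in Hlf cells (all genes 2.13% higher and 3.74% lower) and 0 of 2 in Elane cells (2.34% and 1.90%). In Car1 cells 0 of 1 was past 2-fold (2.002% and 4.79%).

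**Figure D2:**
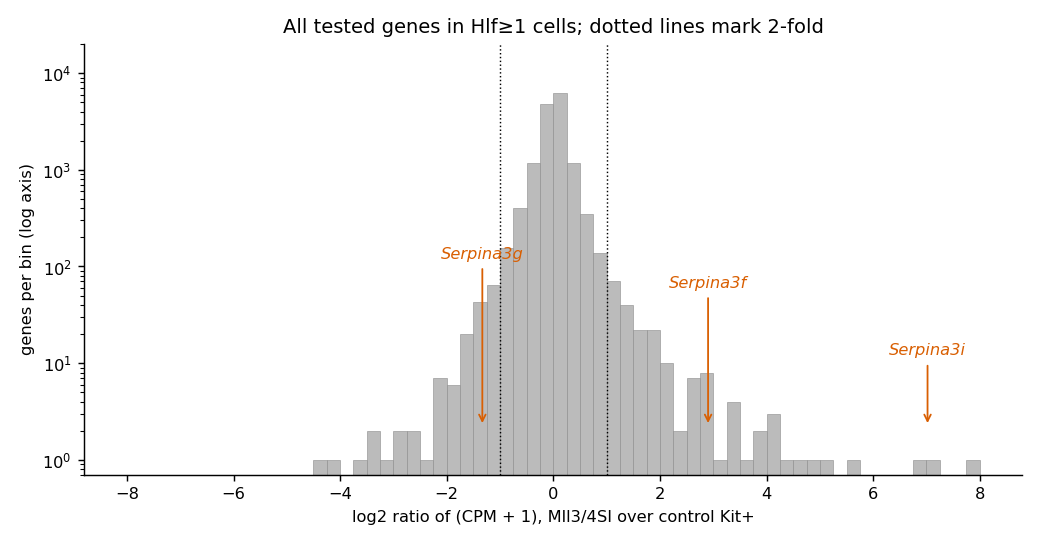
Log2 ratio of CPM + 1, SI over control Kit+ (x), for the 14621 tested genes in Hlf cells, as genes per bin (y, log axis), with dotted lines at 2-fold. Arrows mark Serpina3i at 7.02, Serpina3f at 2.90 and Serpina3g at -1.33, on both sides of the bulk of genes.

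Ratios between members varied less between SI gates than levels did. They are ratios of UMIs, of which a 5′ kit counts 1 per captured transcript whatever its length. In SI cells the count of Serpina3i per Serpina3g UMI was 2.69 in the Hlf (2.56 to 2.83), 2.47 in the Elane (2.30 to 2.65), 2.84 in the Car1 (2.39 to 3.38), 2.71 in the Pf4 (2.46 to 2.98) and 2.54 in the Fcer1a gate (2.42 to 2.66). These intervals overlapped across gates whose Serpina3i levels ran from 30.7 to 267 CPM. The lower of these levels, in the Elane and Car1 gates, are not read as expression, as given below. Serpina3f per Serpina3g UMI was 0.415, 0.328, 0.348, 0.383 and 0.390 in the same order, where the Hlf (0.383 to 0.449) and Elane (0.290 to 0.369) intervals did not overlap. In control Kit+ cells that ratio was 0.0149 in the Hlf (0.0112 to 0.0194), 0.0369 in the Elane (0.0302 to 0.0447), 0.0137 in the Car1 and 0.00780 in the Pf4 gate.

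The control Kit+ ratios of Serpina3f to Serpina3g were therefore lower than those of SI in the Hlf, Elane, Car1 and Pf4 gates. In the Fcer1a gate the control bound, at most 0.0236, was also lower. In the Cd79a gate at most 0.25 in control stood against 0.4 in SI (0.0916 to 1.39), which shows no order. The control Elane value exceeded those of the control Hlf, Car1 and Pf4 gates. In the Hlf and Elane gates deleted cells stood near the control, at 0.0167 (0.00759 to 0.0319) and 0.0257 (0.0136 to 0.0443). In the 12591 deleted Cd79a cells the ratio was 0.639 (0.517 to 0.789). That value exceeded the SI ratios of the Hlf, Elane, Car1, Pf4 and Fcer1a gates. Control B220lo cells, with the limit on their label given below, stood at 0.4801 in the Cd79a gate (0.418 to 0.5502). Their interval in the Hlf gate was 0.0922 to 0.586. A ratio as high as in SI was therefore also counted outside SI, in Cd79a cells, where the levels were lower. Deleted Cd79a cells held 2.38 CPM of Serpina3g and 1.52 of Serpina3f, against 49.5 and 20.5 in SI Hlf cells. That deleted gate had the lowest Serpina3g share of its library, 0.334% of cells thinned to 2000 UMIs. A Serpina3g level above that of free RNA was thus not shown there. The summed level of Serpina3i, Serpina3g and Serpina3f in Hlf cells was 128 CPM in control Kit+, 179.8 in deleted and 203 in SI. In Pf4 cells it was 294 in control, 404 in SI and 404 in the 13 deleted cells. In Fcer1a cells it was 89.2 in control, 288 in SI and 118 in the 4 deleted cells. In these gates the sum was thus higher in SI than in control Kit+ although Serpina3g alone was lower.

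**Figure D3:**
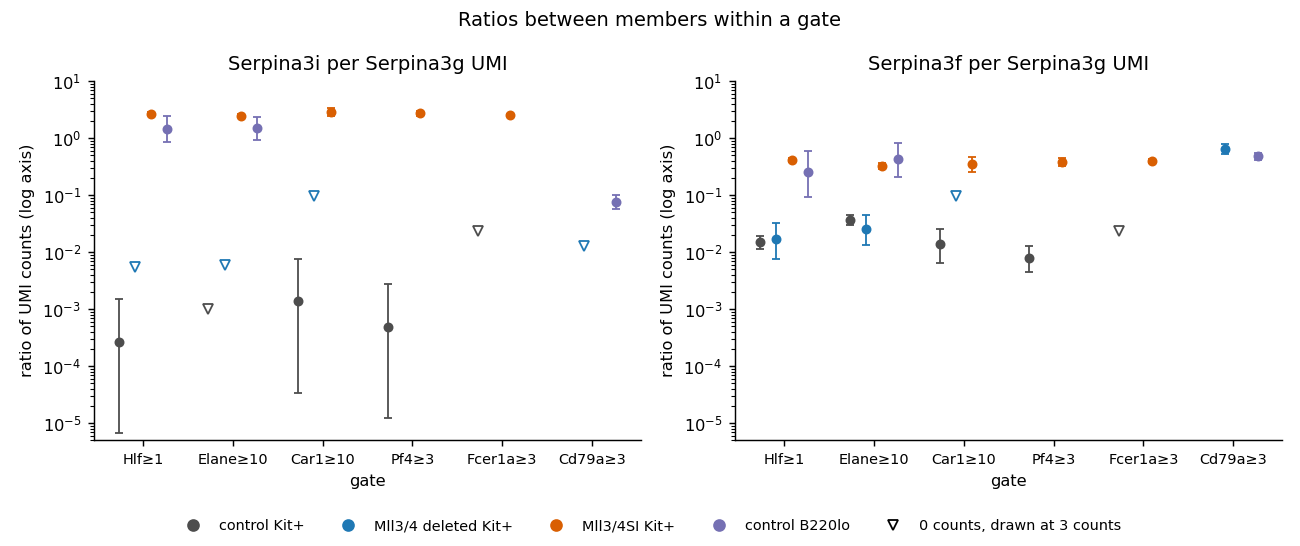
UMIs of Serpina3i per Serpina3g UMI (left) and of Serpina3f per Serpina3g UMI (right), on log axes, by gate and library, with 95% exact intervals, and with open triangles where the first gene had 0 UMIs, set at 3. SI values lie between 2.47 and 2.84 on the left and between 0.328 and 0.415 on the right over 5 gates. The SI Serpina3i levels of the Elane and Car1 gates are not read as expression.

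Shares of cells with a UMI depend on depth, so cells were also thinned to 2000 UMIs. Serpina3i was then found in 22.0% of SI Hlf cells (63.2% unthinned; median depth 11571.5 UMIs), 37.7% of Pf4 cells (84.1%), 28.9% of Fcer1a cells (75.7%) and 8.40% of Elane cells (35.2%). The lowest share, 5.53% in Car1 cells (21.7% unthinned; median depth 18354 UMIs), served as an upper limit for what free RNA could give in this library. The Hlf, Pf4 and Fcer1a shares lay above it with intervals that did not overlap, also when cells were thinned to 1000 or 5000 UMIs. The Elane share lay above it at 2000 UMIs (7.48% to 9.39%, Car1 4.11% to 7.27%), but not at 1000 UMIs, where it was 4.25% against 4.26% in Car1 cells, and at 5000 UMIs the intervals overlapped (15.5% to 18.2% and 11.1% to 15.8%). The SI Cd79a share, 4 of 24 cells (4.74% to 37.4%), was not shown to exceed it either. The SI levels of the Elane, Car1 and Cd79a gates are therefore not read as expression in those cells. The Car1 gate set the level, so its own share could not exceed it. Of unthinned SI Elane cells with Serpina3i, 46.6% held 2 or more UMIs, and the highest count was 23. For SI Car1 cells these values were 49.2% and 28. At 2000 UMIs, Serpina3g was detected in 14.6% of SI Car1 cells with Serpina3i and 1.83% of those without, and 7 cells held both. Whether free RNA gave these counts was not tested. In the control Kit+ library 0 of 2479 thinned Hlf cells had a Serpina3i UMI, where 3 cells would have been 0.121% and the exact upper limit was 0.149%. Both are shares of cells with a UMI at that depth. Among unthinned SI Hlf cells with Serpina3i, 63.2% held 2 or more UMIs, and the highest count in a cell was 23.

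Serpina3g was found in 22.5% of thinned control Kit+ Hlf cells (59.2% unthinned; median depth 10314 UMIs) and in 9.70% of SI Hlf cells (37.4% unthinned). The lowest shares were again in Car1 cells, at 4.17% in control and 2.53% in SI. In SI Elane cells the Serpina3g share of 3.78% (3.16% to 4.48%) overlapped that of SI Car1 cells (1.60% to 3.81%). At 1000 UMIs the shares were 1.91% and 2.07%, with overlapping intervals. At 5000 UMIs the Elane share of 8.08% (7.16% to 9.08%) lay above the Car1 share of 5.201% (3.804% to 6.92%). The reading of Serpina3g in SI Elane cells thus depends on depth. Serpina3f was found in 4.00% of thinned SI Hlf cells, against 0.691% in SI Car1 cells and 0.363% in control Hlf cells. Its share in SI Elane cells, 1.11% (0.782% to 1.53%), overlapped that of SI Car1 cells (0.254% to 1.498%). By share as by level, Serpina3g was lower and the other 2 were higher in SI Hlf cells.

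**Figure D4:**
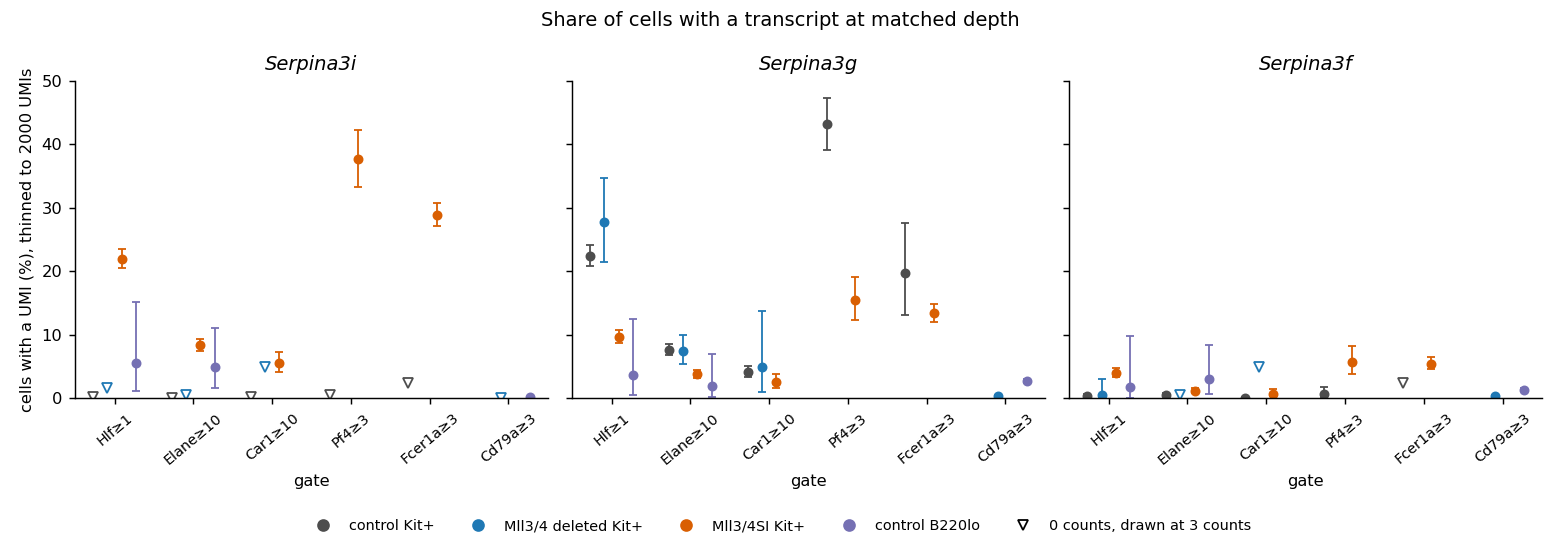
Share of cells with at least 1 UMI (y, %) after thinning each cell to 2000 UMIs, by gate (x) and library, with 95% exact binomial intervals, for Serpina3i, Serpina3g and Serpina3f. Open triangles stand at 3 cells where 0 had a UMI, and gates with fewer than 50 cells are left out. Serpina3i is at 5.53% to 37.7% in SI gates, and Serpina3g in Pf4 cells is at 43.2% in control and 15.5% in SI.

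The members were found together in SI cells. At 2000 UMIs, Serpina3g was detected in 16.1% of Hlf cells with Serpina3i and 7.91% of those without, and Serpina3f in 8.31% and 2.78%. In Fcer1a cells Serpina3g was detected in 19.5% of those with Serpina3i and 10.9% of those without. In Elane cells the shares were 12.9% and 2.95%. Detection of one member therefore went with more frequent detection of the others in the same cells, in counts of 36 to 132 cells with both Serpina3i and Serpina3g.

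Hlf cells were divided further by Mecom, a stem cell transcription factor, and Flt3, a receptor of multipotent progenitors. In control Kit+ cells Serpina3g was 156 CPM with Mecom (1139 cells) and 94.6 with Flt3 and no Mecom (390 cells). In SI cells the values were 51.8 and 50.3, over 1023 and 796 cells. Serpina3i in SI cells was 153 with Mecom (146 to 159.7) and 121 without (114 to 128). The higher Serpina3g level of Mecom cells in the control was not seen in SI, and the difference between libraries was not tested.

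Fcer1a cells were divided by the basophil proteases Mcpt8 and Prss34. SI cells without either protease (2217 of 2341) stood at 189.5 CPM for Serpina3i, 75.2 for Serpina3g and 29.2 for Serpina3f. The 31 SI cells with at least 3 UMIs of one of them stood at 121, 32.3 and 12.1 CPM. Control Kit+ cells without them (86 cells) held Serpina3g at 95.1 CPM and 0 UMIs of Serpina3i and Serpina3f. The Serpina3i difference between SI and control Kit+ was therefore present in cells without basophil proteases. The 18 control B220lo cells without them stood at 141 CPM for Serpina3i, 93.9 for Serpina3g and 28.9 for Serpina3f. These values carry the limit on the label of that library given below. The makeup of the gate differed between libraries, with 86 of 127 control cells and 2217 of 2341 SI cells lacking both proteases, and its part in the values of the whole gate was not tested.

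B-lineage cells were few in the control Kit+ and SI libraries, so deleted Kit+ cells with Cd79a were set beside control B220lo cells. The comparison was chosen after the data were seen, and sort, depth (median 6458 against 3077 UMIs), sex and genotype differ together in it. Stem and progenitor markers summed to 501 CPM in deleted and 28.1 in control B220lo Cd79a cells. Granulocyte-monocyte markers summed to 1087 and 476, and monocyte and macrophage markers to 35.7 and 367. The part of these differences in the values of the members was not tested. Serpina3g stood at 2.38 CPM in deleted cells (233 UMIs in 12591 cells) and 12.1 in control B220lo cells (652 in 10839), a ratio of 0.197 (0.169 to 0.229). Serpina3f stood at 1.52 and 5.81 CPM, a ratio of 0.262 (0.214 to 0.319). Serpina3n gave 2 UMIs in deleted and 48 in control B220lo cells, a ratio of 0.0229 (0.00270 to 0.0875), and Serpina3i 0 and 50 UMIs, a ratio of at most 0.0330 taking 0 as 3 UMIs and the label of the B220lo cells as given. All 4 members were lower in the deleted cells. With 1 CPM added, 2 of 4 members were past 2-fold lower and 0 higher, where 10.8% of genes were lower and 10.7% higher.

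B220lo cells with Cd79a differ in stage, so they were divided by Vpreb1, a part of the surrogate light chain of early B cells, and Ms4a1, which encodes CD20. Serpina3n stood at 2.14 CPM in cells with Vpreb1 and no Ms4a1 (40 UMIs in 2207 cells) and at 0.311 in those with Ms4a1 and no Vpreb1 (4 UMIs in 3295 cells). Serpina3g went the other way, at 4.27 and 19.0 CPM, and Serpina3f differed less, at 3.90 and 5.92. By counted level, Serpina3n was therefore higher in the earlier of these B-lineage cells, and Serpina3g in the later ones. The median depth of these groups was 5162 and 3053 UMIs, and a Serpina3g level above that of free RNA was not shown in this gate. Deleted cells with Vpreb1 and no Ms4a1, 12490 of 12591, stood at 2.24 CPM for Serpina3g, 1.499 for Serpina3f and 0.0205 for Serpina3n. The Serpina3g and Serpina3f gaps to control B220lo cells were narrower between these cells than over the whole gate. For Serpina3n the same 2 deleted UMIs set both comparisons.

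**Figure D5:**
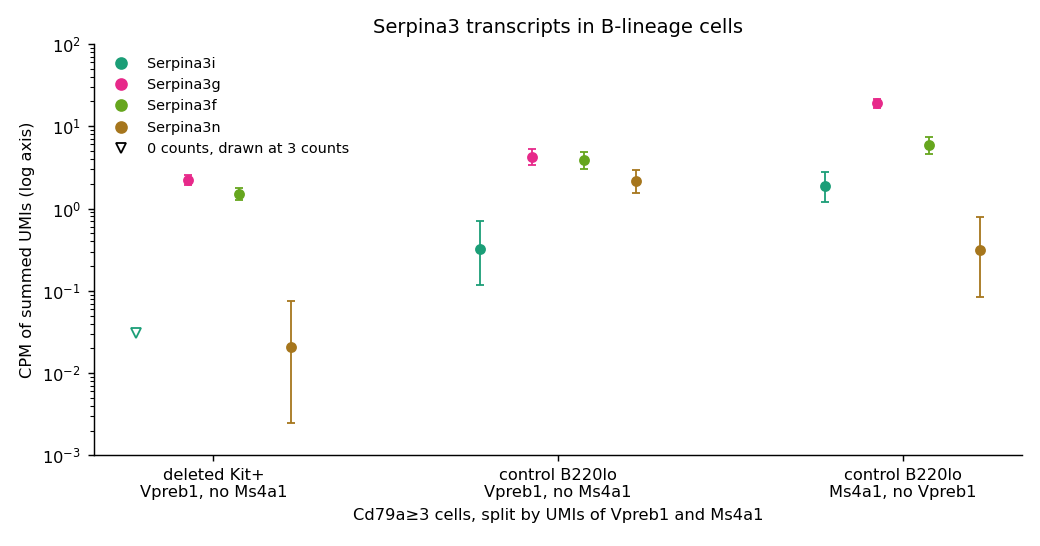
CPM (y, log axis) of the 4 members in Cd79a cells divided by UMIs of Vpreb1 and Ms4a1 (x), with 95% exact Poisson intervals and an open triangle for 0 UMIs, set at 3. Serpina3n is at 2.14 CPM in control B220lo cells with Vpreb1 and at 0.0205 CPM in deleted cells with Vpreb1.

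The control B220lo library also held Serpina3i in the other gates, whose cells were in part of the B lineage (B-lineage markers summed to 1604 CPM in its Hlf, 720.4 in its Elane and 1027 in its Fcer1a gate). It stood at 59.9 CPM in the 58 Hlf cells (40 UMIs), 26.2 in the 102 Elane cells (49 UMIs) and 131 in the 26 Fcer1a cells (49 UMIs), against 0.0341, 0 and 0 CPM in control Kit+ cells. Of 15380 kept cells, 79 had a Serpina3i UMI and 34 of these had 2 or more. One library labelled control was thus near 0 for this gene and the other was not. Whether the Serpina3i-positive cells are control cells, as the label of their library says, was not tested, and every control B220lo value of the members that includes these cells carries that limit. Of the 79 barcodes, 1 also occurred in the SI library and 0 in the control Kit+ or deleted libraries.

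Tpm3-rs7, a gene chosen after its values were seen, stood at 50.3 CPM in control Kit+ Hlf cells, 2.19 in SI and 2.63 in deleted Hlf cells. In B220lo Hlf cells with Serpina3i it was 4.07 CPM (1 UMI in 13 cells; 0.103 to 22.7), and in those without Serpina3i 52.0 (22 UMIs in 45 cells; 32.6 to 78.8). The 2 kinds of cell differed in depth, at medians of 14863 and 8239 UMIs. In Elane cells the Tpm3-rs7 values were 2.48 with Serpina3i and 15.04 without, with overlapping intervals and against 49.5 in control Kit+ Elane cells. In Fcer1a cells 1 UMI each gave 4.08 and 7.77 CPM, and in Cd79a cells 13.6 (4.41 to 31.7) and 42.8 (41.1 to 44.6). Serpina3i-positive B220lo cells of the Hlf and Cd79a gates thus held less Tpm3-rs7 than the other cells of those gates, which was not shown in the Elane and Fcer1a gates, and SI and deleted Hlf cells held less than control Kit+ ones. Its part in the Serpina3i values of this library was not tested.

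The wider pathway was read from lists. In Hlf cells of SI over control Kit+, 0 of 20 other serpins of the Serpina cluster reached 20 UMIs. Of 19 serpins elsewhere 12 were tested and 0 were past 2-fold, with a median log2 ratio of -0.06 against 0.02 over all genes. Of 20 proteases that such inhibitors can meet, 15 were tested and 1 was lower, Prss34, at 3.45 CPM in control and 0.0952 in SI. The shares over all genes there, 1.37% higher and 1.04% lower, would give under 1 gene in lists of this size, so these counts set neither list apart.

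Genes of the inducing pathways gave 2 higher and 0 lower of 30 tested, with a median log2 ratio of 0.05, where 1.37% of all genes were higher and 1.04% lower. Both higher genes are interferon targets. Irf7, an interferon regulatory factor, stood at 16.7 CPM in control and 67.8 in SI, and Iigp1, a GTPase of cell defence, at 9.9998 and 22.7. Of 13 tested interferon genes the median was 0.31. The medians of the interleukin-6, NF-kB and glucocorticoid lists were -0.32, -0.01 and -0.19, with 0 genes past 2-fold.

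Within 1 Mb of the members 11 of 51 genes were tested and 1 was higher, where 1.37% of all genes were. This gene was the interferon-inducible Ifi27l2a, at 14.03 CPM in control and 105 in SI. In deleted Hlf cells Ifi27l2a stood at 39.7 CPM. The deleted library, with Serpina3i at 0 UMIs, thus also had more of this neighbour than the control Kit+ library. Asb2 was at least 2-fold higher too in deleted Hlf cells, at 7.22 CPM against 0.0341, so that 2 of 10 tested neighbours were higher, where 2.13% of all genes were. Asb2 stood at 121 CPM in deleted Cd79a cells, and the part of the B-lineage content of deleted Hlf cells in its value was not tested.

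In Fcer1a cells, Serpine2, an inhibitor of thrombin, was higher in SI (55.7 CPM against 21.8), and Serpinf1 (2.60 against 14.04) and Serpini1 (10.9 against 31.6) were lower. Of 15 tested proteases 6 were lower and 0 higher, with a median log2 ratio of -0.89 against 0.03 over all genes, of which 5.89% were higher and 4.59% lower in this gate. They included Prss34 (616 CPM in control, 1.82 in SI), Mcpt8 (204 and 28.0), granzyme B (Gzmb, 237 and 52.0) and Elane (1717 and 494). Of 30 tested pathway genes 5 were higher, Iigp1, Irf7, Socs1, Relb and Lcn2, and 1 was lower, Cebpb (68.1 and 11.4), beside the same shares of all genes. Granulocyte-monocyte markers in this gate summed to 6070.03 CPM in SI and 9210.2 in control, monocyte and macrophage markers to 132 and 326 and erythroid markers to 182 and 482, and the control gate held a larger share of cells with basophil proteases. The part of these differences in the list counts was not tested. The control side of Iigp1, Socs1 and Relb rests on 1 to 3 UMIs.

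In deleted over control Kit+ Hlf cells, Serpinh1, a collagen chaperone, was higher (5.25 CPM against 0.614, from 16 and 18 UMIs). Serpinf1, Serpine2, Serpinb2 and Serpini1 were lower, of 10 serpins tested, where 2.13% of all genes were higher and 3.74% lower. Serpinh1 stood at 26.3 CPM in deleted Cd79a cells. The part of the B-lineage content of deleted Hlf cells in its value was not tested. Serpinf1 went from 28.3 CPM in control to 6.23 in deleted cells. Of 15 proteases tested, 2 were higher and 1 was lower. The higher ones were the mast cell chymase Cma1 (6.23 CPM against 0.512, from 19 and 15 UMIs) and Gzmb (17.7 against 4.47). The lower one was Prss34 (0 UMIs against 101). Among the pathway genes 0 of 29 were higher and 2 lower, the interleukin-1 receptor Il1r1 (12.7 and 3.61 CPM) and the glucocorticoid target Tsc22d3 (63.4 and 27.2), a count near the share over all genes. The interferon genes of this list gave 0 past 2-fold of 13.

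The genes most like each member were taken from 17 sums of library and gate with at least 50 cells, by Pearson correlation of log2(CPM + 1). The sums share libraries, and some cells count in several, so the coefficients are a description. Serpina3i was most like Cryab (r = 0.94), Kcnj14 (0.94), Hddc3 (0.93), Meiob (0.91) and Capn11 (0.90). Cryab, which encodes a small heat-shock protein, stood at 0.0341 CPM in control Kit+ and 13.97 in SI Hlf cells, at 26.4 in SI Fcer1a cells and at 11.97 in control B220lo Hlf cells.

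Serpina3f was most like Jph1 (r = 0.90), Kcnj14, Cryab, Zfp711 and Ccm2l, 2 of which are also on the Serpina3i list. Serpina3g was most like Mdc1 (0.92), Dnaaf3, Inka1, Arhgap23 and Ift52, none of which is on the other lists. Between members r was 0.89 for Serpina3i with Serpina3f, 0.13 for Serpina3g with Serpina3f and -0.0082 for Serpina3i with Serpina3g.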

How the data were processed

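The deposited files hold raw UMI counts per gene and cell barcode for 4 libraries, not normalized, and the authors' cell calling came before deposit. Cell Ranger 7.1.0 and build mm10 are named in the submitters' processing notes, and the 5′ version 2 kit is named in the labels' protocols. Members, lists and gates were chosen with earlier results of these data known. Barcodes with at least 1000 UMIs, 500 genes and at most 10% mitochondrial UMIs were kept. Doublets were scored with Scrublet in scanpy 1.11.5 (expected share 8%). Its own threshold marked 1166, 0, 1 and 0 barcodes, so a score of 0.25, taken with earlier results known, was applied to all libraries and removed 840, 1168, 580 and 949 (control Kit+, deleted, SI, control B220lo).

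UMIs were summed per gate and expressed as CPM of all UMIs in the gate. Intervals are 95% exact Poisson for CPM, exact binomial (Clopper-Pearson) for shares and exact conditional binomial for ratios, and a count of 0 was set at 3. With 1 library per group no test was made. Calls over all genes meant 2-fold with 1 CPM added and at least 20 UMIs. Genes named besides the members were, in Hlf and Fcer1a cells, up to 5 each way per list past 2-fold, and the 5 most correlated genes among those with at least 100 UMIs, without gate, immunoglobulin, T-cell receptor, mitochondrial, ribosomal, Y-linked and unnamed genes. Asb2, Ifi27l2a, the Vpreb1 and Ms4a1 groups, the comparison with control B220lo cells and Tpm3-rs7 were added after values were seen. Positions come from GENCODE M21, in which 32158 of 32285 identifiers were found, and 4 of 4 members matched the RefSeq promoter table. The ratio and call steps were tested on simulated data. Contig tables were not used here. Alternatives were other barcode filters, doublets kept, cells in exactly 1 gate, doubled or depth-scaled gates, other denominators, cell means, shared barcodes left out, pseudocounts, minimum counts and thinning depths.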

Additional observations from a re-analysis of the deposited data

How the results depend on the processing

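Of 278 recomputed log2 ratios of the members, 244 stayed within the counting interval of the reported value or, for bounds with 0 UMIs, within 1.5 times of it, 33 moved further and 1 with an interval on one side of 0 turned. The one that turned was Serpina3g in Fcer1a cells with doubled gate thresholds, from -0.28 to 0.39. In Hlf cells of SI over control Kit+, Serpina3i went from 11.93 to at least 9.25 with cells in exactly 1 gate and at least 9.10 with doubled thresholds, where the control held 0 UMIs, and to 7.02 with 1 CPM added. Serpina3g went from -1.35 to -1.20 with doublets kept, -1.80 with exactly 1 gate, -1.50 with doubled thresholds and -1.47 as a mean over cells. Serpina3f went from 3.45 to 2.98 with exactly 1 gate and 2.90 with 1 CPM added. Serpina3g in deleted over control Kit+ went from 0.49 to 0.68 with exactly 1 gate and 0.31 as a mean over cells. In Fcer1a cells the bound of Serpina3i went from at least 6.46 to at least 5.79 with exactly 1 gate and at least 5.11 with doubled thresholds, and that of Serpina3f from at least 3.76 to at least 3.08 and at least 2.40. In Cd79a cells that of Serpina3i went from at least 2.38 to at least 0.67 with exactly 1 gate. Except where 0 UMIs or the added CPM set the value, the cause was not tested.

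Of 864 recomputed CPM values of the members 118 were counted as moved, and of 288 shares of cells 109 were. Of 48 recomputed counts of all genes past 2-fold, 26 moved by over 1.5 times and 22 did not. Those that moved are given here. With 10 CPM added in place of 1, SI over control Kit+ gave 51 higher and 24 lower in Hlf cells (201 and 152 with 1 CPM), 44 and 18 in Elane (180 and 73), 29 and 11 in Car1 (98 and 63), 91 and 62 in Pf4 (298 and 290) and 122 and 161 in Fcer1a cells (767 and 597). Deleted over control gave 104 and 65 in Hlf (284 and 499), 90 and 36 in Elane (327 and 266) and 55 and 35 in Car1 cells (252 and 603), and deleted over control B220lo gave 654 and 837 in Cd79a cells (1797 and 1814). With at least 100 UMIs, SI over control gave 145 and 133 in Pf4 and 469 and 346 in Fcer1a cells, and deleted over control gave 111 and 327 in Hlf, 191 higher in Elane, and 88 and 365 in Car1 cells. With no minimum beyond 1 UMI, deleted over control gave 440 higher in Car1 cells.

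No paired analysis was possible because each group is 1 library. The gates with few cells (28 to 47 Cd79a cells in SI and control Kit+, 62 Car1, 13 Pf4 and 4 Fcer1a cells in the deleted library) limit what could be detected there, and differences between mice are not covered by any interval given.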
